A study of Mus musculus with 6 samples.

Results

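The genes described here are 10 genes of hepatic bile acid transport and its regulation, taken by name from the table of 55291 genes in 6 mouse liver tumours. They are Slc10a1, Slco1a1, Slco1a4, Slco1b2, Abcb11, Abcc2, Baat, Nr0b2, Nr1h4 and Fgfr4. All 10 were listed in the table, and all 10 passed the filter of at least 1 TPM (a level corrected for gene length and for the total of the library) in at least 3 of the 6 libraries, as did 16506 genes in all. Polyadenylated RNA was measured in bulk, with 1 library per tumour and 2 groups of 3. The MKO_PD1 tumours grew in Trem2-MKO mice, which lack the macrophage receptor gene Trem2 in myeloid cells, and the hosts of the Cre_PD1 tumours were LysM-Cre mice, which carry a Cre recombinase driven from the myeloid Lyz2 (LysM) locus. Both groups were sampled after treatment with anti-PD-1, which blocks the checkpoint receptor PD-1 on T cells. All tumours were of RIL-175/PD-1R origin, where RIL-175 names a murine hepatocellular carcinoma line and PD-1R is not defined in the labels. The driver of the myeloid knockout, the time of sampling, and the age and sex of the mice are not given either. Nothing in the labels ties a library to a batch, and the design text counts 3 mice per group.

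Bile acids are made from cholesterol in hepatocytes, conjugated there to taurine or glycine, pumped into bile and taken back up from portal blood. Uptake through the sinusoidal membrane relies on the sodium-dependent transporter NTCP (Slc10a1) and on organic anion transporters of the OATP family (Slco1a1, Slco1a4, Slco1b2). Export into bile relies on the bile salt export pump (Abcb11) and on MRP2 (Abcc2), and Baat encodes the enzyme that conjugates bile acids. The nuclear receptor FXR (Nr1h4) senses bile acids and activates genes such as Abcb11 and Nr0b2. Nr0b2 encodes SHP, a repressor of bile acid synthesis and of uptake, and FGFR4 (Fgfr4) is the hepatocyte receptor for the intestinal hormone FGF15, which also represses synthesis.

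Promoter sequences are shown for 3 members, picked after the levels were seen. They cover 250 bases before and 50 bases after the annotated start and come from RefSeq on GRCm38.p6, the assembly also called mm10. RefSeq promoter entries were matched by symbol for 9 of the 10 members. All members other than Baat had one. Abcb11 and Slco1b2 hold a match, with mismatches, to the FXR motif, an inverted repeat of the nuclear receptor half-site. Nr0b2 is the member whose level departed furthest from the others. Whether these motifs bear on the levels was not tested.
Abcb11 (chr2:69342567-69342866, minus strand): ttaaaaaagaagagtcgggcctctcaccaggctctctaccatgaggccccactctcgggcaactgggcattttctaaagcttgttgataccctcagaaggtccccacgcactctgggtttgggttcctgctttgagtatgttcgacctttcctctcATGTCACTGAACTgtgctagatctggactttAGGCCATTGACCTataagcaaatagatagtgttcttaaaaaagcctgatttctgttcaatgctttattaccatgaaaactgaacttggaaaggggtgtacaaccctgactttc
Slco1b2 (chr6:141629268-141629567, plus strand): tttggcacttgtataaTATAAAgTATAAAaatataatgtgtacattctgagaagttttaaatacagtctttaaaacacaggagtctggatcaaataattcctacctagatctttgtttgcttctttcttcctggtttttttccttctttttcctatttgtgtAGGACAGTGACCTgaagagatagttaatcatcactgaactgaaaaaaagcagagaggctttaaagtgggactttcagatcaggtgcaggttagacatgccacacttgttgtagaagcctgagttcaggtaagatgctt
Nr0b2 (chr4:133553126-133553425, plus strand): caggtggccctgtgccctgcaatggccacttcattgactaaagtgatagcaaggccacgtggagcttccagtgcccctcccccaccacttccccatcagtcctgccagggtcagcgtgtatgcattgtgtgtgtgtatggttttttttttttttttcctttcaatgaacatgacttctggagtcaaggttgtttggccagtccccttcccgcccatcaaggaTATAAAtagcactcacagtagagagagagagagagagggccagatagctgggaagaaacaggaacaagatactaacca
Capitals mark matches on either strand to any of 5 motifs. The first was the half-site AGGTCA. The second was an inverted repeat, the half-site followed by any 1 base and by its reverse complement TGACCT, and the third a direct repeat, the half-site given again after any 1 base. The fourth was the HNF1 palindrome, GTTAAT followed by any 1 base and by ATTAAC, and the fifth was TATAAA. Up to 2 mismatches were allowed in the repeats and the palindrome, and none in the others. The half-site is part of both repeats, so their matches overlap. In Abcb11 the inverted repeat was matched with 1 mismatch (AGGCCATTGACCT) at positions -63 to -51 from the start and with 2 mismatches at -94 to -82. In Slco1b2 it was matched with 1 mismatch (AGGACAGTGACCT) at -88 to -76. Of 32851 RefSeq promoters of this length, 1.14% held the inverted repeat at this tolerance, and 3 held it without a mismatch. The half-site was present in 16.3%, the HNF1 palindrome in 1.36%, the direct repeat in 3.86% and TATAAA in 13.6%. The Nr0b2 window held TATAAA at -28 to -23 and none of the other 4 motifs. Bases outside these windows were not searched, so a motif further upstream would not be seen. These matches describe the letters of each window and do not show binding.

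The libraries differed in how much hepatocyte RNA they held. The 23 listed genes of a 24-gene hepatocyte marker list, led by Alb, summed to 208097, 52908 and 148855 TPM in MKO_PD1 replicates 1, 2 and 3, and to 23556, 43187 and 42012 TPM in Cre_PD1 replicates 1, 2 and 3 (13.7 ± 7.83% against 3.63 ± 1.10% of all TPM, SD, n = 3 each). None of the 23 was at 0 in any library. Markers of kidney proximal tubule, another site of transporter expression, summed to at most 0.146 TPM in MKO_PD1 and 0.114 TPM in Cre_PD1. The summed bile duct and progenitor markers, led by the keratin gene Krt19, ranged from 289 to 1587 TPM in MKO_PD1 and from 2714 to 5091 TPM in Cre_PD1. Kupffer cell markers summed to between 381 and 2179 TPM in MKO_PD1 and between 202 and 500.3 TPM in Cre_PD1. Markers of liver sinusoidal endothelium (4 of 5 listed) ranged from 64.1 to 158 TPM in MKO_PD1 and from 40.9 to 63.0 TPM in Cre_PD1, without overlap. The part of these last cell types in the values below was not tested. In bulk RNA fewer cells of a type and less RNA per cell cannot be told apart, and the labels do not say whether liver next to the tumour was included. The targeted gene Trem2 was at 7.68, 18.0 and 6.81 TPM in MKO_PD1, against 10.5, 16.5 and 14.9 TPM in Cre_PD1, and the groups overlapped (log2 difference -0.44, SE 0.40, and 0.018 with median-of-ratios scaling; limma adjusted p = 0.432). Without MKO_PD1 replicate 2, the library with the highest Trem2 level, the Trem2 difference was -0.84 (limma adjusted p = 0.0450). Reads were counted over the whole gene and the deleted part is not named in the labels, so the Trem2 level does not measure the deletion. The libraries held between 26747236 and 34264909 reads recovered from the table, and for a gene with 1 kb of exon each read added 0.0763 to 0.114 TPM.

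All 10 genes had a higher mean in MKO_PD1 than in Cre_PD1 tumours, and for 7 of them every MKO_PD1 library lay above every Cre_PD1 library. None passed the test over all genes (limma, smallest adjusted p among the 10 = 0.168), and the means are therefore given as measured levels. The same 10 genes summed to 1607, 602 and 1257 TPM in MKO_PD1 replicates 1, 2 and 3, against 149, 392 and 477 TPM in Cre_PD1 replicates 1, 2 and 3. Within each group the sum was ordered as the hepatocyte markers were, except that Cre_PD1 replicates 2 and 3 changed places.

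Groups that did not overlap, with MKO_PD1 higher, were found for 10.1% of all tested genes. An unadjusted p under 0.05 with MKO_PD1 higher was found for 8.47% of all tested genes and for 9 of the 10 members. At the adjusted threshold of 0.05, 0.00606% of all tested genes (1 of 16506) were called higher and 0.0121% in either direction, while 0 members were called by limma and 0 by limma voom on the recovered reads. These calls turn on 1 library. Without MKO_PD1 replicate 2, the MKO_PD1 library with the least hepatocyte RNA, 8 of the 10 members passed, all higher, beside 7.88% of all tested genes called higher and 38% called lower. The exceptions were Slco1a1 (limma adjusted p = 0.0525) and Nr0b2 (limma adjusted p = 0.280). The highest log2 difference among the 10 was then that of Slc10a1, at 2.83 (limma adjusted p = 0.0290). The median log2 difference of the 10 members was 1.66, beside -0.42 for all tested genes. These counts describe the list, and its members share hepatocytes as their main source in liver.

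**Figure D1:**
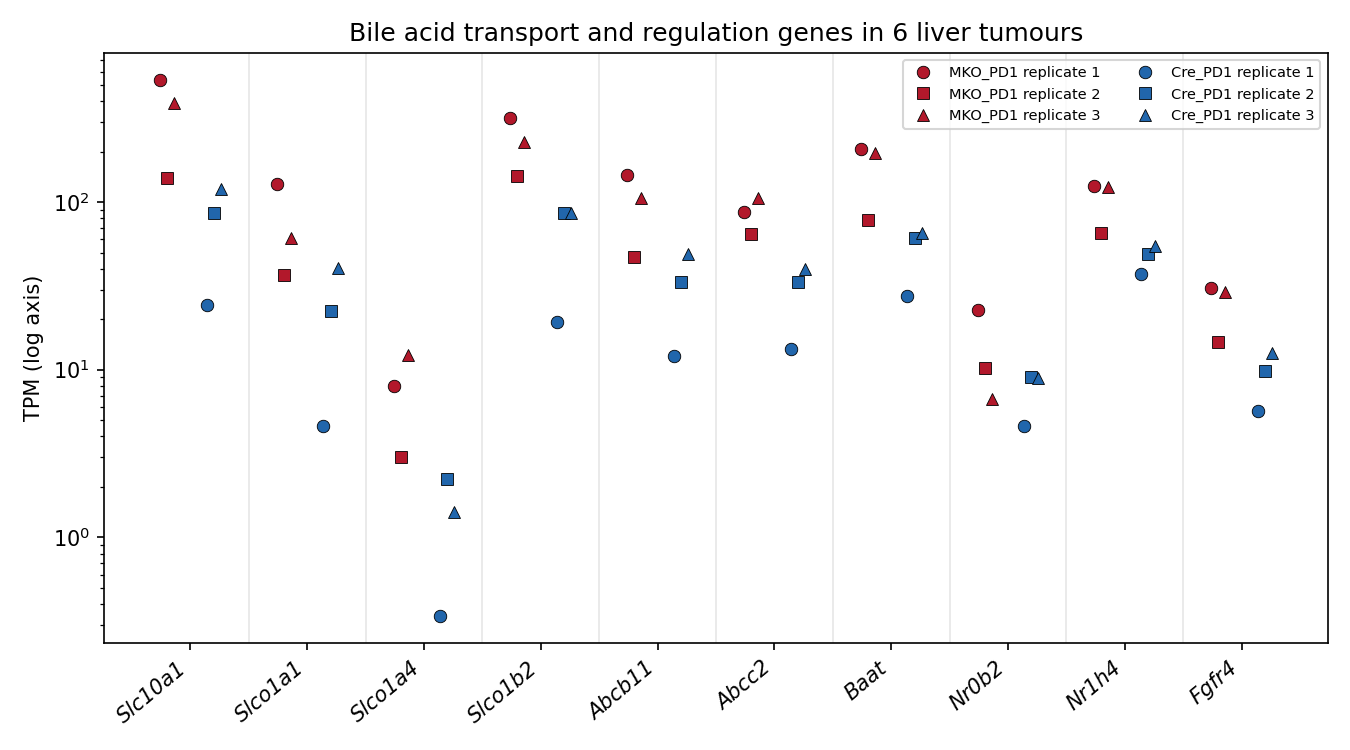
Levels of the 10 genes in TPM on a log axis, 1 point per library, with MKO_PD1 (red) left of Cre_PD1 (blue) and the marker shape giving the replicate. Cre_PD1 replicate 1 is the lowest point for every gene, and MKO_PD1 replicate 2 lies nearest to the Cre_PD1 libraries for all genes other than Nr0b2.

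Of the uptake transporters, Slc10a1 (chromosome 12, 80953183 to 80968705 on the minus strand of GRCm38, ENSMUSG00000021135.8) was the most abundant member per length. It stood at 536, 139 and 389 TPM in MKO_PD1 replicates 1, 2 and 3, against 24.3, 86.5 and 119 TPM in Cre_PD1 replicates 1, 2 and 3. Even the lowest MKO_PD1 library, replicate 2, lay just above the highest Cre_PD1 library. Its log2 difference was 2.26 (SE 0.67; limma adjusted p = 0.168). That p ranged from 0.0290 to 1.0 over 17 alternative settings.

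The 3 OATP genes lie within 1 cluster on chromosome 6 and differed by more than an order of magnitude in level. Slco1b2 (141629518 to 141686646, plus strand), the main liver OATP of mice, was at 319, 143 and 229 TPM in MKO_PD1 and at 19.3, 85.8 and 86.5 TPM in Cre_PD1. Its groups did not overlap (log2 difference 2.03, SE 0.59; limma adjusted p = 0.168).

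Slco1a1 (141907282 to 141946962, minus strand), an OATP gene known for its male-biased expression in mouse liver, was at 128, 36.5 and 61.2 TPM in MKO_PD1 and at 4.60, 22.4 and 40.2 TPM in Cre_PD1. MKO_PD1 replicate 2 lay below Cre_PD1 replicate 3, so the groups overlapped (log2 difference 1.93, SE 0.74; limma adjusted p = 0.168). Its Cre_PD1 libraries spread widely, with an SD of 17.8 TPM around a mean of 22.4 TPM.

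Slco1a4 (141805440 to 141856199, minus strand), which is also expressed at the blood-brain barrier, was the least abundant member in 5 of 6 libraries. It was at 8.01, 3.00 and 12.3 TPM in MKO_PD1, on 674, 192 and 832 reads, against 0.337, 2.22 and 1.42 TPM in Cre_PD1, on 22, 171 and 80 reads. The groups did not overlap (log2 difference 1.84 with a pseudocount of 1, SE 0.52; limma adjusted p = 0.168). At these levels the pseudocount matters, and with 0.1 in its place the log2 difference was 2.55. In the related Slco1a5 and Slco1a6 the table held at most 0.889 TPM and 0 TPM in any library. Of all 100-base stretches in the transcripts of Slco1a1 and Slco1a4, 0.614% and 0.640% also occur in transcripts of another gene, and none of Slco1b2, so few reads of that length could be shared between these neighbours.

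Both canalicular pumps had similar levels. Abcb11 (chromosome 2, 69238282 to 69342616, minus strand), the bile salt export pump, was at 145, 46.7 and 106 TPM in MKO_PD1 and at 12.1, 33.1 and 49.2 TPM in Cre_PD1. MKO_PD1 replicate 2 lay below Cre_PD1 replicate 3, so the groups overlapped (log2 difference 1.68, SE 0.57; limma adjusted p = 0.168). An antisense gene, Gm13613, overlaps 136 bases (2.64%) of its exons, and the strand setting of the counting is not given in the sources used here.

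Abcc2 (chromosome 19, 43782192 to 43840740, plus strand) encodes MRP2, which exports conjugated bilirubin and divalent bile acid conjugates. It was at 86.7, 64.5 and 105.5 TPM in MKO_PD1 and at 13.3, 33.2 and 39.8 TPM in Cre_PD1. Its groups did not overlap, and Abcc2 had the smallest p among the members (log2 difference 1.65, SE 0.42; limma adjusted p = 0.168). It was the only uptake or export gene of the list other than Slco1a4 that was highest in MKO_PD1 replicate 3 and not in replicate 1.

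Baat (chromosome 4, 49489422 to 49506557, minus strand), the conjugating enzyme, was at 207, 78.4 and 197 TPM in MKO_PD1 and at 27.7, 60.9 and 65.0 TPM in Cre_PD1. There was no overlap between the groups (log2 difference 1.60, SE 0.47; limma adjusted p = 0.168).

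Among the regulators, Nr1h4 (chromosome 10, 89454234 to 89533585, minus strand), which encodes the bile acid receptor FXR, had the lowest SE of the log2 difference among the members. Its level was 125, 65.7 and 122 TPM in MKO_PD1, against 37.0, 48.7 and 54.3 TPM in Cre_PD1. The groups did not overlap (log2 difference 1.10, SE 0.32; limma adjusted p = 0.168). In Cre_PD1 replicate 1, the library with the least hepatocyte RNA, it was the most abundant of the 10 genes, while Slc10a1 or Slco1b2 led in the other 5 libraries.

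Fgfr4 (chromosome 13, 55152640 to 55168759, plus strand) was at 30.8, 14.5 and 29.3 TPM in MKO_PD1 and at 5.66, 9.85 and 12.6 TPM in Cre_PD1, without overlap (log2 difference 1.31, SE 0.40; limma adjusted p = 0.168). Its profile over the 6 libraries was the closest to that of Nr1h4 among the members. The root mean square distance between their log2 profiles, each centred on its own mean, was 0.179 log2 units.

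Nr0b2 (chromosome 4, 133553376 to 133556536, plus strand), which encodes SHP, did not follow the other members. It was at 22.6, 10.3 and 6.68 TPM in MKO_PD1 replicates 1, 2 and 3, on 336, 116 and 80 reads. In Cre_PD1 replicates 1, 2 and 3 it was at 4.60, 9.05 and 8.97 TPM, on 53, 123 and 89 reads. MKO_PD1 replicate 3, the second highest library for 7 of the other members and the highest for the 2 remaining ones, was here below 2 of the 3 Cre_PD1 libraries. The groups overlapped, and the log2 difference was 0.62 (SE 0.47; unadjusted p = 0.219, limma adjusted p = 0.351), or 0.17 without MKO_PD1 replicate 1. It was the only member with an unadjusted p over 0.05. Its profile lay 1.09 log2 units from that of Slc10a1, 0.798 from that of its fellow FXR target Abcb11 and 0.576 from that of Nr1h4.

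By mean TPM over the 6 libraries the order of the members was Slc10a1, Slco1b2, Baat, Nr1h4, Abcb11, Abcc2, Slco1a1, Fgfr4, Nr0b2 and Slco1a4. Fgfr4 was above Nr0b2 in 6 of 6 libraries. Abcb11 was above Abcc2 in 3 of 6 libraries and Abcc2 above Slco1a1 in 4 of 6, so these neighbours had no fixed order. Each of the other 6 neighbouring pairs kept its order in 5 of 6 libraries.

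**Figure D2:**
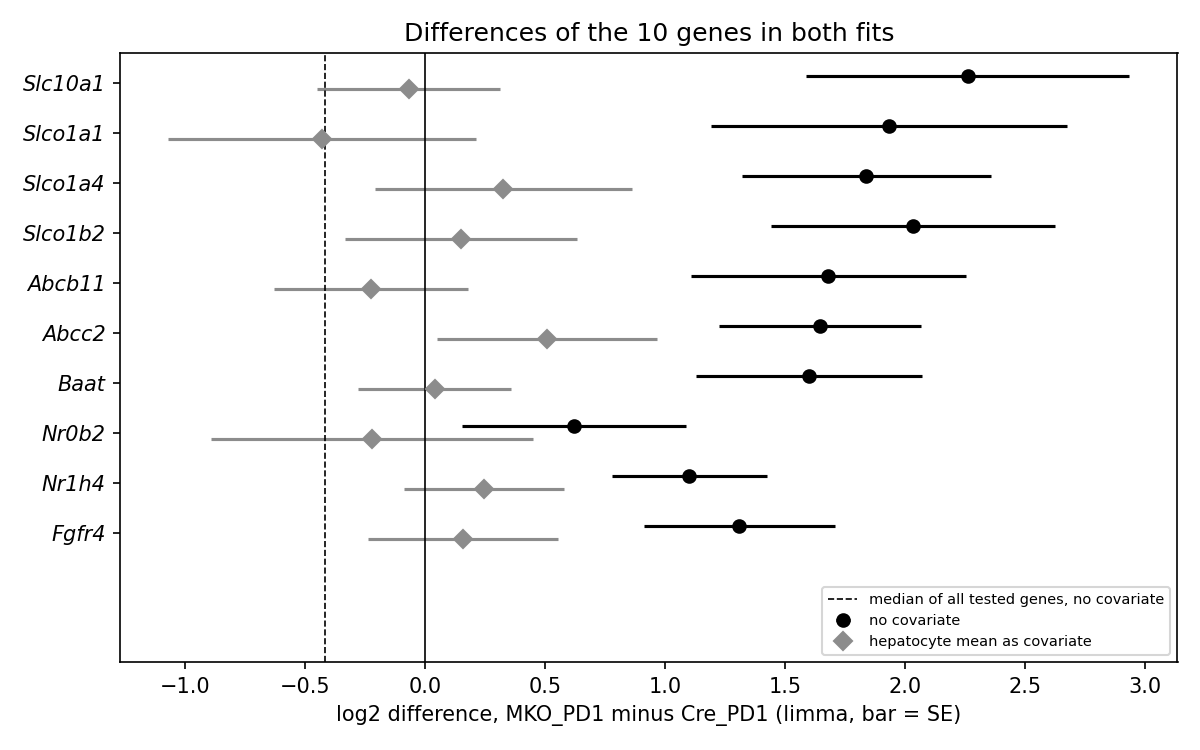
Log2 differences between MKO_PD1 and Cre_PD1 from limma for the 10 genes, with bars of 1 SE, in the fit without a covariate (black circles) and with the mean of the hepatocyte markers as a covariate (grey diamonds). The black points run from 0.62 to 2.26, and the grey points run from -0.43 to 0.51. The dashed line is the median of all tested genes without the covariate, at -0.42.

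Whether the members differed beyond the hepatocyte RNA of each library was asked in 2 ways. With the mean log2 level of the hepatocyte markers as a covariate, the median log2 difference of the 10 genes was 0.097, and 6 were above 0. The fitted values ran from -0.43 (SE 0.64) for Slco1a1 to 0.51 (SE 0.46) for Abcc2. In that fit 0 members were called, 0% of all tested genes were called, and no member had an unadjusted p under 0.05. The groups did not overlap in the marker mean itself, so group and hepatocyte content are largely confounded in this fit.

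The other way was to subtract the marker mean from each gene within its own library. On this scale the groups overlapped for 9 of the 10 genes. The pseudocount of 1 weighs on the low Slco1a4, whose difference was 0.0018 (exact permutation p = 1) and, with a pseudocount of 0.1, 0.71 (exact permutation p = 0.2). Slc10a1 lay at -2.83, -3.06 and -2.94 log2 units in MKO_PD1 replicates 1, 2 and 3, against -3.79, -3.42 and -2.88 in Cre_PD1 (difference 0.42; exact permutation p = 0.3, two-sided). Abcb11 lay at -4.71, -4.62 and -4.81 in MKO_PD1, against -4.74, -4.78 and -4.15 in Cre_PD1 (difference -0.16; exact permutation p = 0.8). Over the 10 genes the SD within a group ran from 0.094 (Abcb11) to 0.97 (Nr0b2) log2 units in MKO_PD1 and from 0.16 (Baat) to 0.77 (Slco1a1) log2 units in Cre_PD1.

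Nr0b2 was the exception, at -7.33, -6.70 and -8.60 in MKO_PD1, against -5.97, -6.55 and -6.48 in Cre_PD1. All 3 MKO_PD1 libraries were below all 3 Cre_PD1 libraries (difference -1.22; exact permutation p = 0.1, two-sided, the smallest that 3 against 3 can give). Without MKO_PD1 replicate 3 the Nr0b2 difference was -0.69, close to the -0.71 of Nr1h4 without the same library. On this scale 66.1% of all tested genes were separate and lower in MKO_PD1, so Nr0b2 was placed as most genes were. Nr1h4 (difference -0.74; exact permutation p = 0.2) and Fgfr4 (difference -0.53; exact permutation p = 0.2) had negative differences with overlapping groups. Without MKO_PD1 replicate 2 both were separate and lower, as was Abcc2, and without Cre_PD1 replicate 2 both were separate and lower, as was Baat. Without Cre_PD1 replicate 3 Slc10a1 was separate and higher. The share of all tested genes that were separate was not counted with a library left out, where fewer values have to separate. These separations are therefore not read as results about the members.

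**Figure D3:**
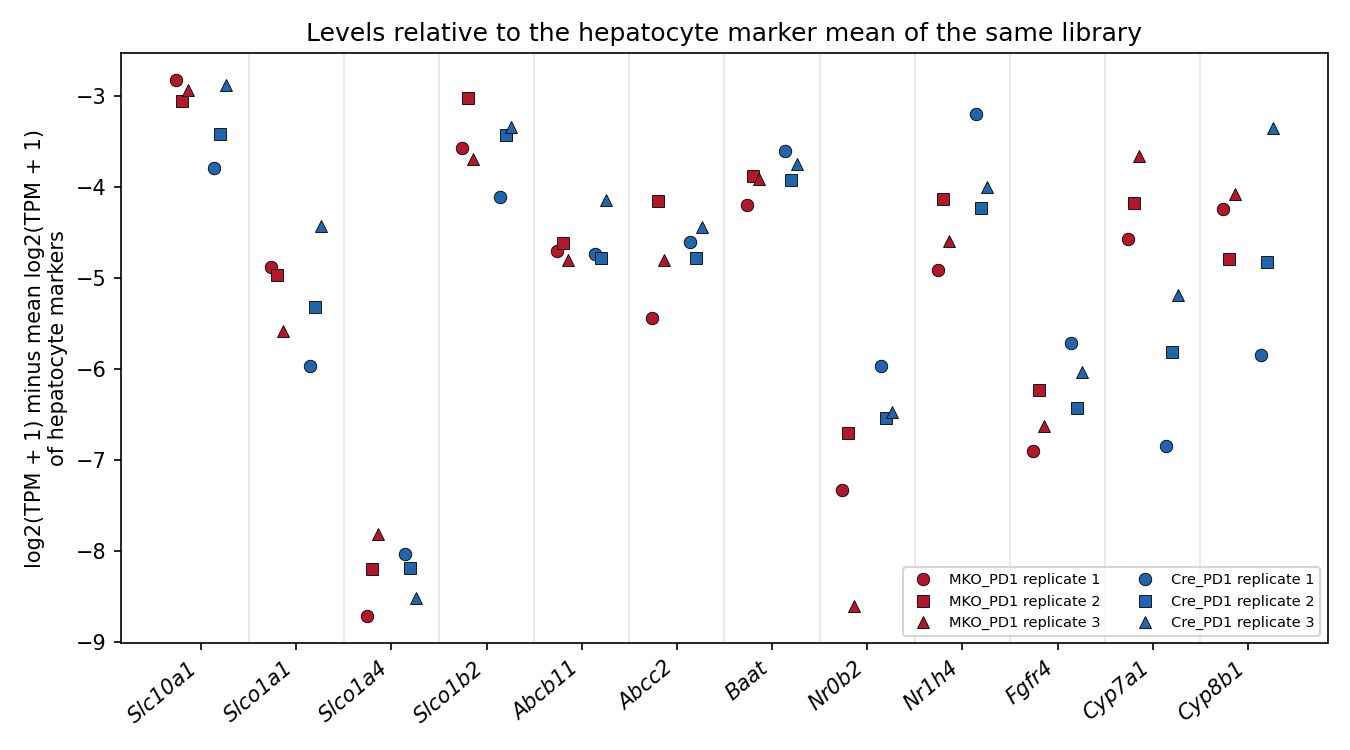
Level of each gene in log2(TPM + 1) minus the mean of the hepatocyte markers in the same library, 1 point per library, with MKO_PD1 (red) left of Cre_PD1 (blue). Nr0b2 is the member with all MKO_PD1 points below all Cre_PD1 points, and Cyp7a1, a gene of bile acid synthesis, has all MKO_PD1 points above them.

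Ratios between members were compared for 5 pairs, with an exact two-sided permutation test each and adjustment over the 5. Abcb11 per Slc10a1, the export pump against the uptake transporter, was 0.270, 0.335 and 0.272 by TPM in MKO_PD1, against 0.499, 0.383 and 0.411 in Cre_PD1. The groups did not overlap (difference -0.58 on the log2(TPM + 1) scale; exact permutation p = 0.1, which 3 against 3 cannot go below, and 0.5 after adjustment). A ratio of TPM values within a library does not depend on how the library is scaled, but it can depend on the cells in it. The ratio was highest in Cre_PD1 replicate 1, which held the least hepatocyte RNA, and lowest in MKO_PD1 replicate 1, which held the most. Whether it follows hepatocyte content was not tested. The share of all gene pairs that separate was not counted, so this separation is not read as a result about the pair.

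The other 4 ratios overlapped between the groups. Nr0b2 per Nr1h4, the repressor against the receptor that activates it, was 0.182, 0.156 and 0.0547 by TPM in MKO_PD1 and 0.125, 0.186 and 0.165 in Cre_PD1 (exact permutation p = 0.6, and 0.9 after adjustment). MKO_PD1 replicate 3 alone lay below the other 5 libraries. Slco1a1 per Slco1a4 was 16.0, 12.2 and 4.99 in MKO_PD1 and 13.6, 10.1 and 28.2 in Cre_PD1, a spread within each group that was wider than the difference between them (exact permutation p = 0.9). Abcc2 per Abcb11 was 0.60, 1.38 and 0.999 in MKO_PD1, against 1.10, 1.0 and 0.810 in Cre_PD1 (exact permutation p = 0.9). Baat per Abcb11 ran from 1.43 to 1.86 in MKO_PD1 and from 1.32 to 2.28 in Cre_PD1 (exact permutation p = 0.8).

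**Figure D4:**
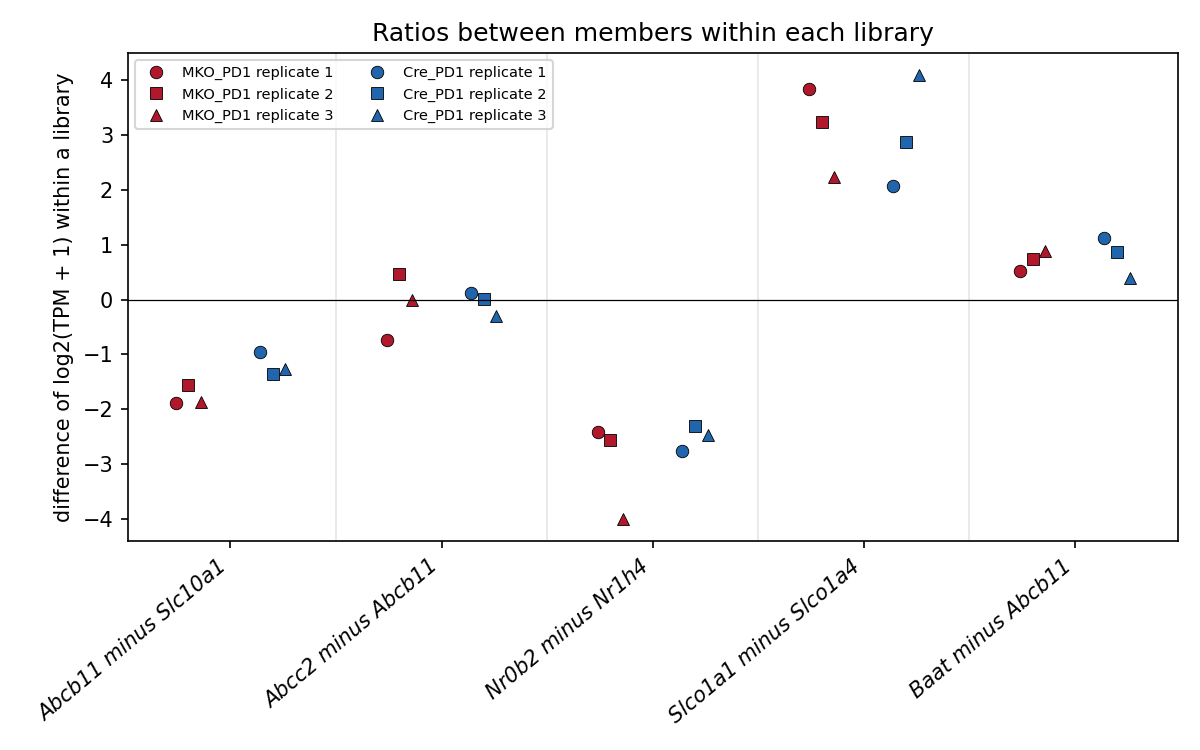
Differences in log2(TPM + 1) between pairs of members within each library, 1 point per library, with MKO_PD1 (red) left of Cre_PD1 (blue). Abcb11 minus Slc10a1 is the pair with groups that do not overlap, with MKO_PD1 lower, and Nr0b2 minus Nr1h4 shows MKO_PD1 replicate 3 below the other 5 libraries.

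The rest of the pathway was described by 3 lists. Of 15 genes of bile acid synthesis and conjugation, 14 were tested and 0 passed in either direction. The groups were separate and higher in MKO_PD1 for 8 and separate and lower for 1, and the median log2 difference was 1.60. Beside these and the next counts stand 10.1% of all tested genes that were separate and higher in MKO_PD1 and 28.9% that were separate and lower. Cyp7a1, the rate-limiting enzyme of the classic synthesis pathway and a gene that SHP and FGF15 are known to repress, was at 159, 63.7 and 235 TPM in MKO_PD1, against 2.05, 15.7 and 23.2 TPM in Cre_PD1. Its log2 difference of 3.65 (SE 0.79; limma adjusted p = 0.168) was the highest of all tested genes.

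Relative to the hepatocyte markers Cyp7a1 lay at -4.58, -4.18 and -3.66 in MKO_PD1, against -6.84, -5.81 and -5.20 in Cre_PD1 (difference 1.81; exact permutation p = 0.1, the floor for groups of 3). On this scale 9 of the tested genes (0.0545%) were separate and higher in MKO_PD1, among them Cyp7a1. With the hepatocyte mean as a covariate its log2 difference was 1.10 (SE 0.66; limma adjusted p = 1.0). Cyp8b1, the sterol hydroxylase that directs synthesis to cholic acid and a gene chosen after its values were seen, was at 199, 41.2 and 176 TPM in MKO_PD1 and at 5.09, 32.1 and 85.9 TPM in Cre_PD1. Relative to the hepatocyte markers its groups overlapped (difference 0.30; exact permutation p = 0.7).

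The next genes of that list by p did not pass either (limma adjusted p = 0.168 for each). Akr1d1, a steroid reductase of bile acid synthesis, averaged 63.0 ± 28.9 TPM in MKO_PD1 and 14.4 ± 9.10 TPM in Cre_PD1 (SD, n = 3 each). Cyp2c70, which makes muricholic acids in mice, averaged 560 ± 357 TPM in MKO_PD1 and 110 ± 42.0 TPM in Cre_PD1. Acox2, a peroxisomal oxidase that shortens the side chain, averaged 62.4 ± 26.3 TPM in MKO_PD1 and 21.0 ± 7.13 TPM in Cre_PD1.

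Of 15 other transporter genes, 11 were tested and 0 passed. The groups were separate and higher in MKO_PD1 for 8 and separate and lower for 1 (10.1% and 28.9% of all tested genes), with a median log2 difference of 0.93. Atp8b1, a phospholipid flippase of the canalicular membrane, averaged 15.1 ± 3.86 TPM in MKO_PD1 and 5.10 ± 1.39 TPM in Cre_PD1. Abcc3, which exports bile acids back to blood, averaged 65.6 ± 16.5 TPM in MKO_PD1 and 34 ± 8.0 TPM in Cre_PD1, and the uptake transporter Slco2b1 averaged 27.1 ± 11.7 TPM in MKO_PD1 and 8.45 ± 5.0 TPM in Cre_PD1. The separate and lower gene was the multidrug efflux pump Abcb1a, at 3.06, 14.3 and 13.4 TPM in MKO_PD1, against 30.4, 32.9 and 36.9 TPM in Cre_PD1 (log2 difference -1.83, SE 0.50; limma adjusted p = 0.168). The bile duct and progenitor markers had the same direction, and their part in this value was not tested. Slco1a6 was at 0 in every library.

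Of 13 other regulators, 12 were tested and 0 passed, with 5 separate and higher in MKO_PD1, 1 separate and lower (10.1% and 28.9% of all tested genes), and a median log2 difference of 0.81. Klb, the coreceptor of FGFR4, averaged 8.26 ± 3.87 TPM in MKO_PD1 and 2.46 ± 0.405 TPM in Cre_PD1. Nr5a2, a nuclear receptor whose activity on Cyp7a1 is inhibited by SHP, averaged 16.3 ± 5.36 TPM in MKO_PD1 and 5.27 ± 1.68 TPM in Cre_PD1. The xenobiotic receptors Nr1i2 (PXR) and Nr1i3 (CAR) averaged 33.7 ± 9.19 and 10.5 ± 2.80 TPM in MKO_PD1, against 11.7 ± 4.46 and 3.16 ± 1.13 TPM in Cre_PD1. Fgf15, the ligand of FGFR4, is made in the ileum, and the table listed it at 0 in 5 of 6 libraries.

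For 4 members the genes with the most similar profile were sought among 9462 tested genes with a mean of at least 10 TPM, by the same root mean square distance over the 6 libraries. Nearest to Abcb11 were Coq8a, Pm20d1 and Sdr42e1, at 0.0424, 0.0521 and 0.0547 log2 units. Nearest to Nr1h4 were Aldh6a1, Fndc4 and Hdhd3, at 0.0778, 0.0859 and 0.0880 units. Nearest to Slc10a1 were the predicted gene Gm10319, Urad and Serpina1d, at 0.0593, 0.102 and 0.144 units, and nearest to Slco1a1 were Ces1e, Elovl2 and Ces1f, at 0.138, 0.146 and 0.175 units. All these profiles share the 6 libraries and their hepatocyte content.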

How the data were processed

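Alignment to mm10 with STAR 2.7.10a and gene counting with featureCounts 2.0.3 are named in the submitters' processing notes. The table is labelled TPM, but as deposited by the authors it holds a signal of read counts divided by gene length, not normalised to a TPM total. All 6 columns share 1 constant of 8.03, and each value times the GENCODE M21 exon length over that constant gave whole reads, within 0.001, for 29352 of 29798 genes (98.5%) with a length and a value. Each library was rescaled to 1000000, as TPM, and log2(TPM + 1) was fitted by group with limma 3.58.1 (R 4.3.3, trend on, no covariate). Adjustment was by Benjamini-Hochberg across the 16506 genes tested, at 0.05. Differences are MKO_PD1 minus Cre_PD1. The design was written for TPM as deposited, and the rescaling keeps its test. Exact permutation tests used scipy 1.17.1. Tf in the hepatocyte list had no row under that symbol.

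All 10 members are named. Up to 4 tested genes of each of the 3 pathway lists were named by smallest p, with those at 0 in every library, and up to 3 genes by profile for each of 4 members. The members and lists were chosen with earlier results of these data known. Promoter motifs were chosen after the levels were seen. Alternatives are given in the closing section. The limma p-values set each group difference against the spread between libraries of the same group. The exact permutation p-values set it against the regroupings of the same 6 libraries. Read numbers carry no molecular identifiers.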

Additional observations from a re-analysis of the deposited data

How the results depend on the processing

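The 10 log2 differences without a covariate kept a positive sign under both other pseudocounts, both filters (Slco1a4 did not pass 5 TPM), median-of-ratios and quantile scaling, no trend, the robust option, the replicate block, voom on recovered reads and without each library in turn. Scaling moved the median of all tested genes, at -0.42 by TPM, to 0.0056 with median-of-ratios factors and -0.10 with quantiles. The member median was then 2.16 and 1.94, against 1.66 by TPM. Among the 18 alternatives, members passed the threshold in 2. Without MKO_PD1 replicate 2, the MKO_PD1 library with the least hepatocyte RNA, 8 members passed, all higher, beside 7.88% of all tested genes called higher. Slco1a1 (limma adjusted p = 0.0525) and Nr0b2 (0.280) did not. Leaving out each library gave 0 to 8 members and 0 to 7314 genes, with a member median of 1.16 to 2.10. Relative to the hepatocyte markers, leaving out each library gave 1 to 4 separate members. The share of all tested genes was not counted in those settings. Sample quality weights gave 9 members and 12056 genes, and the Nr0b2 difference turned negative, at -0.19. The weights did not converge and put nearly all weight on MKO_PD1 replicate 3, so this fit is void. With the hepatocyte mean as a covariate the member median was 0.097, with 0 genes called, and Slc10a1, Slco1a1, Abcb11 and Nr0b2 turned negative (adjusted p = 1.0 for each). The count of all genes past the threshold, 2, was 1 with median-of-ratios factors, and 0 with no filter, with 5 TPM, with quantile scaling and with voom. The cause of these moves was not tested.

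Same-numbered libraries did not deviate together (correlations of -0.42, -0.26 and 0.049 across genes), and differently numbered ones gave -0.23 to 0.39. The numbers were therefore not taken as pairs in the main fit. With 3 libraries per group that differ in hepatocyte content, these correlations cannot exclude a pairing. With the replicate block 0 genes and 0 members passed, and the member median was 1.66. All members other than Slco1a4 and Nr0b2 held over 200 reads in every library, so counting error weighs most on those.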
